A study of Drosophila simulans with 12 samples.

Results

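The meiotic arrest genes of Drosophila encode the transcription machinery that switches on the spermatocyte programme. Of 10 such genes chosen by name, 9 had a probe set under their own symbol on both arrays, which gave 9 of 18769 probe sets for testis and 10 of 13966 for abdomen, since mia had 2 in abdomen. They were aly, comr, tomb, topi and mip40, of the testis meiotic arrest complex (tMAC), and can, sa, mia and nht, which encode testis forms of TBP-associated factors (testis TAFs). The tenth, rye, was not analysed here. A probe set summarises several short probes against 1 transcript, and a gene's level is given below as the linear intensity of its probe set.

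In D. melanogaster, tMAC is a testis relative of the somatic Myb-MuvB (dREAM) complex. The testis TAFs are paralogs of subunits of TFIID, the general factor that binds core promoters. Loss of any of these genes stops male germ cells as primary spermatocytes, before the meiotic divisions, and leaves many transcripts of meiosis and spermatid differentiation unmade. Mutants of the aly class lack transcripts for the meiotic divisions as well as those for spermatids, while mutants of the testis TAF class mainly lose the spermatid ones.

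RNA came from adult males, 3 to 4 days old, of 2 Drosophila simulans lines. Both carry a D. mauritiana introgression of about 10% of the X chromosome. As the series design states it, the lines differ in about 3 Kb that holds exons 3 to 4 of the homeobox gene OdsH: S males have the sterile variant and F males the fertile one. Each line and tissue was hybridised 3 times from separate extractions, which gave 12 arrays in 4 groups of 3. About 150 males were dissected for testis and 50 for abdomen. There is 1 line of each kind and no pure D. simulans group, so the line and the introgressed variant cannot be told apart. The labels do not tie extractions to separate cultures, and p-values then reflect only array-to-array spread, which may be technical. Both array designs target D. melanogaster, and probe mismatches to D. simulans were left as they are.

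Correlations between arrays across genes, which are not independent replicates, were 0.964 to 0.998 in testis and 0.890 to 0.937 in abdomen. Of 6 germline marker genes on the testis array, 4 were present on all arrays of each line, among them betaTub85D, the testis beta-tubulin. The sum of the 6 ranged from 12535 to 12623 in sterile and from 13200.5 to 13369 in fertile testis, but its genes did not move together. betaTub85D rose, to 5867 ± 38.6 (SD, n = 3) from 5678 ± 27.6 in the fertile line. The untested bam read 130.7 ± 11.9 against 105 ± 7.98. bol fell, and dj, which was not tested, read lower on every sterile array. vas and twe did not pass, at log2 fold changes of -0.12 and -0.16. Markers of other tissues also differed. The sum of 5 midgut genes was 823 to 864 in sterile and 9542 to 9702 in fertile testis, with 2 of the 5 present on all sterile and 4 on all fertile arrays. The sum of 4 fat body genes was 6082 to 6160 against 7501 to 7717, that of 5 accessory gland genes 31448 to 31957 against 32833 to 33085, and that of 3 muscle genes 1674 to 1805 against 1909 to 2035. Of the fat body genes Cyp4g1, apolpp and FASN1 fell. The untested Lsp2 read higher on every sterile array, at 250 ± 10.3 against 223 ± 6.25, and was present on 66% of sterile and 0% of fertile arrays. Of the accessory gland genes Acp36DE (log2 fold change -0.13) and Acp62F (-0.08) fell, and Acp26Aa, Acp76A and SP did not pass. With arrays centred on their medians, 2 of the 5 accessory gland genes were higher and 1 lower, where 60.9% of all genes passed. Of the muscle genes Zasp52 fell (log2 fold change -0.42), Act88F rose (0.26) and Tm2 did not pass. Dup99B, the 1 ejaculatory duct gene on the array, overlapped between the lines, at 6744 to 7134 against 6824 to 7007. The sum of 4 cyst and hub genes went the other way, at 655 to 708 against 582 to 603. Of these, upd1 (log2 fold change 1.23) and zfh1 (0.41) rose and eya did not pass. The untested tj overlapped, at 143.5 ± 4.98 in sterile and 153.6 ± 8.89 in fertile testis. The dim upd1 was present on 100% of sterile and 33% of fertile arrays. The part of all these markers in the results below was not tested. In these bulk samples, fewer cells of a type and less RNA per cell cannot be told apart.

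Sterile testis showed more mip40, nht and topi and less aly than fertile testis, by 1.40-fold at most. sa passed as lower on the scale deposited and not under either other scaling, and tomb, can and mia did not pass. Rises and falls are given throughout from the fertile to the sterile line. Of 9 member probe sets, 8 were tested, those that the authors called present on every array of the sterile or of the fertile line. With limma and Benjamini-Hochberg adjustment over 9927 probe sets, 5 of the 8 passed at an adjusted p under 0.05. Of those 5, 3 were higher and 2 lower in the sterile line. Over all probe sets tested, 60.4% passed, 22.6% higher and 37.8% lower, so the share of members called lies near the background. The 3 sterile and 3 fertile values did not overlap for 5 of the 9 members, against 49.6% of all testis probe sets. That split depends on scaling. It became 29.6% higher and 29.6% lower with arrays centred on their medians, and 30.5% and 29.8% after quantile normalization. The median log2 fold change was 0.03 over the 8 members and -0.03 over all 8050 genes tested.

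**Figure D1:**
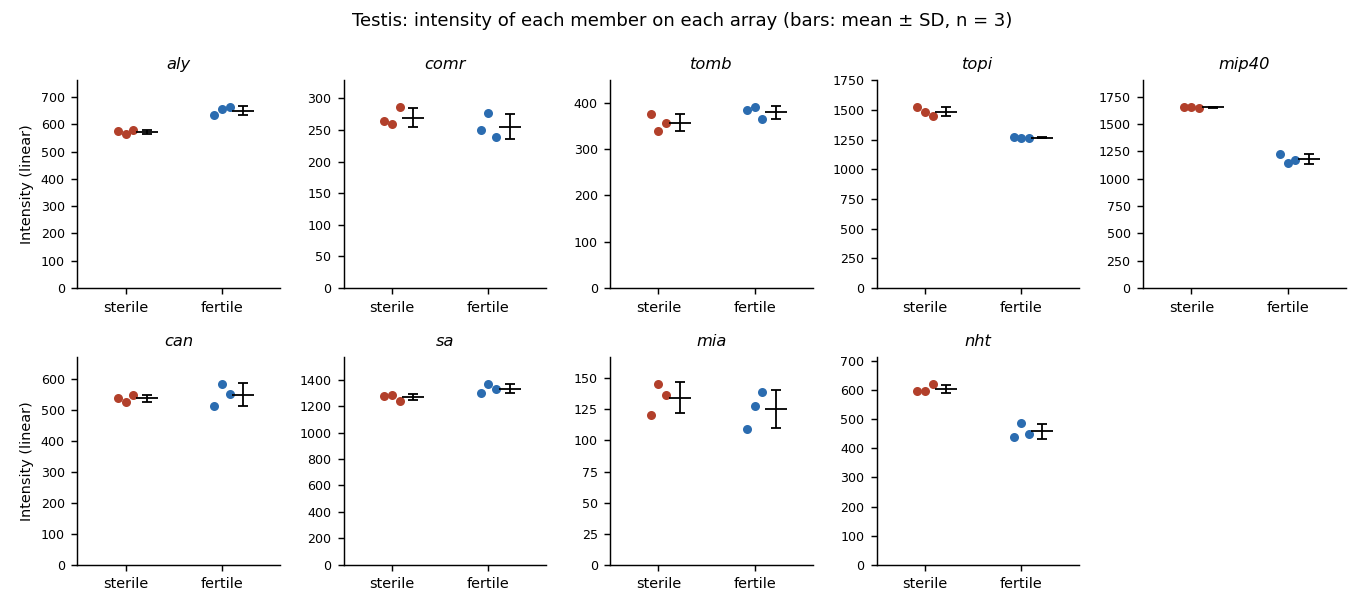
Linear intensity of the 9 members on each testis array, 1 panel per gene with its own axis from 0. Points are the 3 arrays of the sterile (red) and fertile (blue) line, and bars are mean ± SD. The sterile points of mip40, topi and nht lie above the fertile ones, those of aly and sa below, and those of comr, tomb, can and mia overlap.

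Among the tMAC genes, mip40 moved most. It encodes the fly homolog of LIN-37, and unlike the other tMAC members here its product is also a subunit of the somatic dREAM complex. Probe set 1638339_at of mip40 read 1657, 1658 and 1653 on the sterile arrays and 1230.3, 1146 and 1169.5 on the fertile ones. The groups did not overlap, and the sterile arrays lay within a few units of each other. The mean was 1656 ± 2.85 (SD, n = 3) in sterile and 1182 ± 43.5 in fertile testis, a 1.40-fold rise on the log2(intensity + 16) scale, which understates changes of dim genes. The log2 fold change was 0.48 ± 0.03 (SE), with a limma adjusted p of 5.63e-10. An absolute log2 fold change at least as large occurred in 11% of all probe sets tested.

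topi, which encodes a zinc finger subunit of tMAC, rose less. Its probe set 1639848_at read 1525, 1485 and 1445 in sterile and 1271, 1264 and 1262 in fertile testis, so all sterile arrays were above all fertile ones. The rise was 1.17-fold, with 0.23 ± 0.03 on the log2 scale (SE, limma adjusted p = 2.77e-06).

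The aly gene, a homolog of LIN-9 that gives its name to the aly class, went the other way. Its probe set 1627064_at read 575, 563 and 579 in sterile and 633, 656 and 664 in fertile testis. Every sterile array was below every fertile one, with means of 572 ± 8.13 and 651 ± 15.9 (SD, n = 3). The log2 fold change was -0.18 ± 0.04 (SE, limma adjusted p = 0.000492). It was smaller after median centring, at -0.14, and after quantile normalization, at -0.10, with adjusted p-values of 0.00593 and 0.0294.

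The other tMAC members, tomb and comr, showed overlapping groups. tomb, a CXC-domain protein gene related to LIN-54, read 376, 338 and 357 in sterile and 384, 391 and 364 in fertile testis at probe set 1639996_at. Its log2 fold change was -0.09 ± 0.05 (SE, limma adjusted p = 0.16), with a 95% confidence interval of -0.19 to 0.02. comr, whose product acts with Aly in the spermatocyte nucleus, read 264, 259 and 286.5 against 249.6, 277 and 238 at probe set 1636050_at. It was called present on 66% of the arrays of each line and so was not tested under the filter. Without that filter its log2 difference was 0.08 ± 0.07 (SE, limma adjusted p = 0.409).

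The ratio of a pair of genes within an array hardly depends on how arrays are scaled. The log2 value of mip40 minus that of aly was 1.49 to 1.53 in sterile and 0.79 to 0.94 in fertile testis, a shift of 0.66. For topi minus aly the ranges were 1.30 to 1.38 and 0.91 to 0.99, a shift of 0.41. For mip40 minus topi they were 0.12 to 0.19 and -0.14 to -0.05. These pairs were picked after the values were seen, so their separation is a description with no test.

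Among the testis TAF genes, nht was the one that rose. It encodes the testis paralog of TAF4. Probe set 1631270_at of nht read 597, 596 and 621 in sterile and 441, 487 and 448 in fertile testis, with no overlap. The rise was 1.31-fold, from 459 ± 25.2 to 605 ± 14.4 (SD, n = 3), and the log2 fold change was 0.39 ± 0.04 (SE, limma adjusted p = 1.19e-06). Its detection call went against its intensity: the authors called it present on 66% of the sterile arrays, where it was brighter, and on 100% of the fertile ones. It therefore passed the filter through the fertile line.

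sa, the testis paralog of TAF8, was slightly lower in sterile testis. Its probe set 1632138_at read 1274, 1288 and 1242 against 1299.5, 1367 and 1327, which do not overlap but lie close. The log2 fold change was -0.07 ± 0.03 (SE) and the limma adjusted p 0.049. With arrays centred on their medians it was -0.025 and the call was lost (limma adjusted p = 0.534). After quantile normalization it was -0.0065 (0.862). The call was also lost without sterile replicate A (adjusted p = 0.0726), sterile replicate C (0.166), fertile replicate B (0.197) or fertile replicate C (0.0893). Within arrays, log2 nht minus log2 sa ran from -1.09 to -0.98 in sterile testis and from -1.53 to -1.46 in fertile testis, a pair also picked after its values were seen.

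can and mia, the testis paralogs of TAF5 and TAF6, did not pass. can read 536, 525 and 547 in sterile and 511, 582 and 551 in fertile testis at probe set 1639670_at. Its log2 fold change was -0.03 ± 0.05 (SE, limma adjusted p = 0.59), with a 95% confidence interval of -0.13 to 0.07, and its sign turned under both scaling alternatives. mia was dim, at 121, 145 and 136 against 109, 128 and 139 at probe set 1635813_at. It was present on 100% of sterile and 66% of fertile arrays, so it passed the filter through the sterile line. Its log2 fold change was 0.09 ± 0.09 (SE, limma adjusted p = 0.418), with a 95% confidence interval of -0.11 to 0.29.

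**Figure D2:**
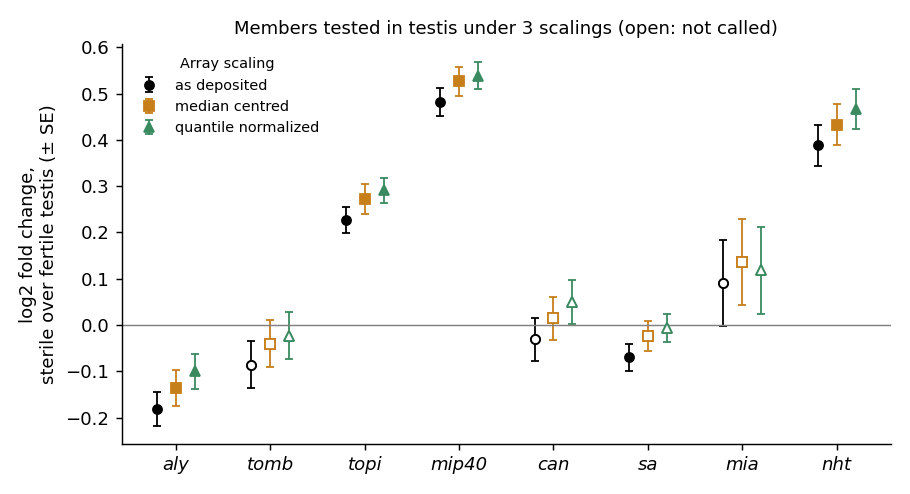
Log2 fold change of the 8 tested members, sterile over fertile testis, with SE bars, for intensities as deposited (black circles), median centred (orange squares) and quantile normalized (green triangles). Filled symbols passed at an adjusted p under 0.05. mip40, nht, topi and aly kept their call under all 3 scalings, while sa passed only as deposited and can changed sign.

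In the authors' deposited table of the same testis arrays, mip40 is the 1 member with a mark in the column headed filtered. It has a signed fold of -1.39 (fertile over sterile) and a p-value of 0.000506. The authors' deposited table gives signed folds of -1.32 for nht (p-value 0.0307) and -1.17 for topi (p-value 0.0056), and 1.14 for aly (p-value 0.00683), all unmarked. In the authors' deposited table, sa has a signed fold of 1.05 (p-value 0.135). Each sign is the opposite of the one above because that table puts fertile over sterile, so the directions match. The table describes these same arrays and is no second measurement.

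Most members lay below the filter in whole abdomen, and none passed there. The abdomen arrays are of another design and were scaled separately, so no level is compared between the tissues. Only mip40 reached the abdomen filter, a mean log2 value at or above the median. It read 1227, 1244 and 994 in sterile and 864, 1155 and 793 in fertile abdomen at probe set 153580_at. Sterile values tended to be the higher ones, but the groups overlapped. The log2 fold change was 0.31 ± 0.20 (SE, n = 3 per line), with a 95% confidence interval of -0.14 to 0.75, an unadjusted limma p of 0.152 and an adjusted p of 0.767. With limma, 38 of 6983 abdomen probe sets passed (0.544%), and 65 with the replicate letter as a block, under which mip40 had an adjusted p of 0.519. The effect on mip40 in testis minus that in abdomen was 0.17 ± 0.20 (SE) on the log2 scale. Its 95% confidence interval was -0.27 to 0.62, and its adjusted p was 0.757 over 4774 genes tested in both tissues with limma, of which 3.27% passed. A difference between the tissues was therefore not detectable, and one of the size of the testis effect lies within the interval. The 5 accessory gland markers summed to 11063 to 15019 in sterile and 11901 to 16371 in fertile abdomen. How much male reproductive tissue the abdomen samples held was not tested, so the testis and abdomen samples may share tissue types.

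sa was the 1 member whose abdomen values did not overlap. It read 84.8, 65.6 and 134 in sterile and 195.7, 208 and 279 in fertile abdomen at probe set 149179_at. The sterile mean was 94.8 ± 35.3 (SD, n = 3) and the fertile mean 227 ± 44.9. sa lay below the filter, and without a filter its log2 difference of -1.17 ± 0.43 (SE) had a limma adjusted p of 0.612. Of the 10 member probe sets 1 did not overlap, against 12.3% of all abdomen probe sets. sa was also lower in testis, where its call depended on scaling.

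For the other 8 abdomen probe sets the groups overlapped, and array-to-array spread was large. aly read 197.8, 128 and 64.2 in sterile and 241, 67.5 and 67.5 in fertile abdomen. tomb read 78.9, 152 and 163 against 189.5, 54.2 and 372. topi read 77, 24.0 and 181 against 91.7, 73.8 and 38.3. The dim comr read 33.4, 28.8 and 11.7 against 67.5, 45.8 and 15.9, so its lines cannot be separated either. can read 23.4, 50.8 and 157 against 129, 25.3 and 64.6. nht, which rose in testis, read 98.2, 25.1 and 38.3 against 17.1, 109.6 and 147. Its abdomen values gave no direction beyond their spread. The probe sets of mia pointed opposite ways: 142009_at read 63.4, 21.6 and 39.9 against 32.5, 113 and 196, and 142726_at read 39.7, 79.0 and 8.2 against 29.0, 29.1 and 13.8. Among the testis germline markers, betaTub85D read 360.1 ± 87.4 in sterile and 499 ± 52.3 in fertile abdomen, and the summed level of the 6 ran from 2646 to 4151 and from 2708 to 5971.

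**Figure D3:**
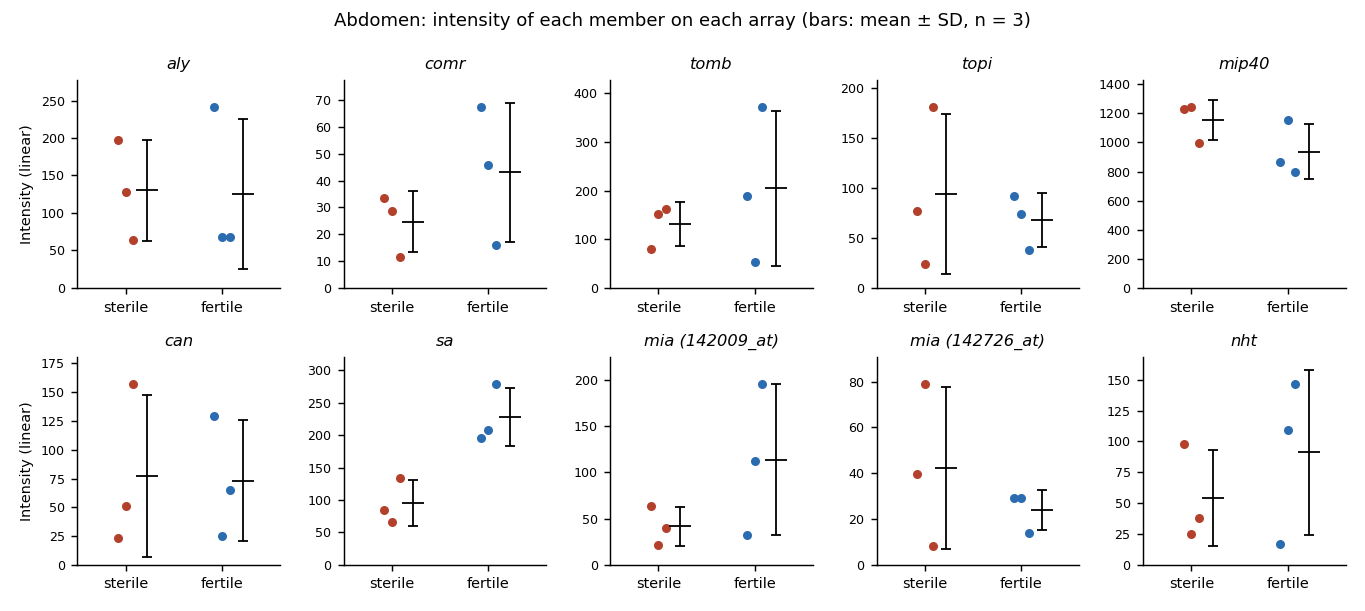
Linear intensity of the 10 member probe sets on each abdomen array, 1 panel per probe set with its own axis from 0. Points are the 3 arrays of the sterile (red) and fertile (blue) line, and bars are mean ± SD. Only the points of sa separate by line, and mip40 overlaps through 1 fertile array at 1155.

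Of 4 other tMAC subunits and partners, 2 were tested in testis, and 1 rose and 1 fell. Over all genes, 24.2% were higher and 37.5% lower. Caf1-55, a histone-binding protein shared by many chromatin complexes, fell from 3372 ± 32.9 to 3049 ± 80.5 (SD, n = 3), with -0.15 ± 0.02 on the log2 scale (SE, limma adjusted p = 3.69e-05). wuc, a testis paralog of lin-52, rose from 404 ± 28.3 to 466 ± 25.6 (log2 fold change 0.20 ± 0.05, limma adjusted p = 0.00444). The homeodomain genes achi and vis are near-identical tandem copies, so their signals may be shared. achi read 1088 ± 63.6 in sterile and 1176 ± 63.2 in fertile testis and vis 1428 ± 96.5 and 1955 ± 99.4. Neither overlapped between the lines, as was so for 49.6% of all testis probe sets. Neither was tested, since achi was called present on 0% and vis on 66% of the arrays of each line.

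The somatic dREAM complex shares with tMAC mip40, which rose, and Caf1-55, which fell. Both are described above and left out of the count here. Of the other dREAM genes, 3 of 6 tested rose, none fell and 3 did not pass, with a median log2 fold change of 0.12. Over all genes represented by 1 probe set each, 24.2% were higher and 37.5% lower. E2f2, a repressive E2F, rose from 1803 ± 9.72 to 1924 ± 48.3 (SD, n = 3, limma adjusted p = 0.00499). lin-52 rose from 87.9 ± 4.78 to 109.5 ± 2.15 (limma adjusted p = 0.0111). It was present on 66% of sterile and 100% of fertile arrays, so it passed the filter through the fertile line, where it was dimmer. HDAC1, the third, is a histone deacetylase, at 205.5 ± 13.9 against 180.2 ± 6.14. HDAC1 lost its call without a filter (limma adjusted p = 0.0712). The call was also lost without sterile replicate A (limma adjusted p = 0.148), sterile replicate C (0.0621), fertile replicate A (0.0954) or fertile replicate B (0.0891).

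General TFIID genes counted 1 higher, 2 lower and 8 not passing of 11 tested (median log2 fold change -0.01), against 24.2% higher and 37.5% lower over all genes. Only some of them, Taf4, Taf5, Taf6, Taf8 and Taf12, are the paralogs of the testis TAFs. Of these, Taf5 and Taf6 did not pass on the scale deposited, and Taf8 was not tested. Taf3 fell from 1173 ± 28.1 to 814 ± 27.7 (SD, n = 3), or by log2 fold change -0.52 ± 0.03 (SE, limma adjusted p = 1.12e-09). Taf4, the general counterpart of nht, read 193 ± 4.95 in sterile and 270.4 ± 8.52 in fertile testis at its brighter probe set, a fall of log2 -0.45 ± 0.06 (limma adjusted p = 3.7e-06). This probe set was present on 66% of sterile and 100% of fertile arrays, so it passed the filter only through the line where it was brighter. A second probe set of Taf4 read 150.6 ± 4.98 and 156.6 ± 10.8 and did not pass, so the probe sets disagree. Taf12, the counterpart of rye, was at 832 ± 39.6 against 767 ± 21.9 (log2 fold change 0.11 ± 0.04, limma adjusted p = 0.0182). It lost the call without sterile replicate B (limma adjusted p = 0.0553), sterile replicate C (0.0824) or fertile replicate B (0.086), after which no TFIID gene was higher. Under median centring and under quantile normalization 3 general TFIID genes were higher and 2 lower. Over all genes, 31.5% were then higher and 29.5% lower with median centring, and 32.7% and 29.4% after quantile normalization.

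Factors linked to tMAC and the testis TAFs in spermatocytes were listed whether or not they act with them. They counted 2 higher, 1 lower and 3 not passing of 6 tested (median log2 fold change 0.06). The all-gene shares beside them were the same 24.2% and 37.5%. thoc5, of the THO mRNA export complex, rose from 858 ± 39.6 to 1013 ± 22.2 (SD, n = 3, limma adjusted p = 3.11e-05). Nxt1, an mRNA export cofactor, rose from 602 ± 13.9 to 699 ± 20.1 (limma adjusted p = 0.000131). Pc, the Polycomb chromodomain protein, fell from 143 ± 10.0 to 98.8 ± 10.9, a log2 fold change of -0.47 ± 0.09 (SE, limma adjusted p = 0.000251). The bromodomain gene tBRD-1 read 731 ± 16.1 in sterile and 727 ± 3.25 in fertile testis and did not pass. After quantile normalization 5 of these 6 were higher and 1 lower, where 32.7% of all genes were higher and 29.4% lower.

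Transcripts that need meiotic arrest genes in D. melanogaster went both ways in sterile testis. Of 14 tested, 4 rose, 3 fell and 7 did not pass, with a median log2 fold change of -0.0047, against 24.2% higher and 37.5% lower over all genes. After median centring 6 rose and 2 fell, where 31.5% of all genes were higher and 29.5% lower. fzo, a mitofusin of the spermatid, rose from 1055 ± 80.0 to 1175 ± 7.54 (SD, n = 3, limma adjusted p = 0.0043). The protamine gene Mst35Bb, listed on the platform as ProtB, read 272.6 ± 60.3 in sterile and 197.5 ± 16.9 in fertile testis. It passed (limma adjusted p = 0.00495), although its groups overlapped, but not without the variance trend (0.0634). It was present on 100% of sterile and 66% of fertile arrays, so it passed the filter only through the line where it was brighter. djl, a sperm tail protein gene, fell from 1833 ± 25.4 to 1286 ± 30.9 (log2 fold change -0.51 ± 0.03 SE, limma adjusted p = 1.01e-10). bol, an RNA-binding protein gene of the meiotic divisions, fell from 4209 ± 56.2 to 3809 ± 116 (log2 fold change -0.14 ± 0.02, limma adjusted p = 4.53e-05). Its partner twe, a Cdc25 phosphatase gene, read 148 ± 6.97 against 166 ± 7.6 and did not pass (log2 fold change -0.16 ± 0.07, limma adjusted p = 0.068). Of the 4 sperm tail genes of the Mst84D cluster, Mst84Dd passed at a log2 fold change of 0.07 with overlapping groups, and the other 3 did not pass. Mst84Dd lost the call without sterile replicate C (limma adjusted p = 0.0674) or fertile replicate B (0.0521). Mst98Ca, another sperm tail gene, passed at 0.04 and also lost it without these arrays (0.232 and 0.137), which left 2 target genes higher in each case. Mst98Ca lost it as well without fertile replicate A (0.0934) or fertile replicate C (0.053). In abdomen none of 13 target genes tested passed with limma, none had an unadjusted p under 0.05, and 0.543% of all genes passed.

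**Figure D4:**
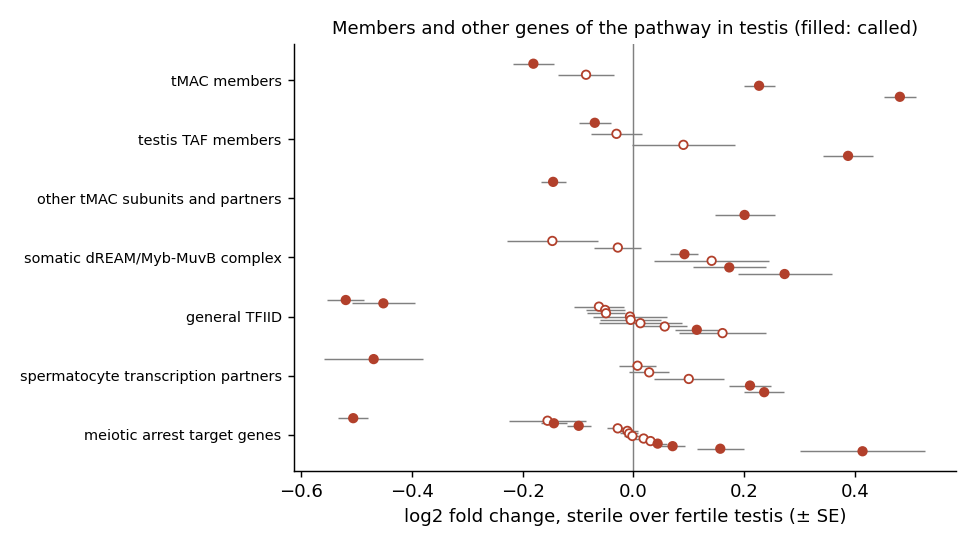
Log2 fold change, sterile over fertile testis, of every tested member and other gene of the pathway, by list, 1 point per gene with SE bars. Filled points passed at an adjusted p under 0.05. Each member list holds points on both sides of 0, and the points of the target genes cluster near 0 with djl at -0.51 and the protamine gene at 0.41 at the ends.

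The level averaged over the 6 members present on all testis arrays was 9.72 to 9.76 on the log2 scale in sterile and 9.67 to 9.70 in fertile testis. The genes whose values followed this average most closely over the 6 arrays were Dip-B, with a Pearson r of 0.994, Rdh1 (0.986), AIF (0.985), Elo68beta (0.985) and pbl (0.984). Of 8540 probe sets compared, 59 had an r of at least 0.95. The 6 arrays fall into 2 lines, so part of each r is the difference between the lines.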

How the data were processed

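Testis and abdomen intensities are those deposited by the authors, each tissue on its own Affymetrix design. The submitters' processing notes name MAS5. Testis arrays hold 26 to 37 values below 0 each, which MAS5 cannot give, so their making is not given in the sources used here. The authors' deposited testis comparison, fertile over sterile, gave the percent of arrays called present, a signed fold score and p-values. For 99.7% of probe sets its mean column matched the fertile testis mean (tolerance 2% or 2 units), which fixes its direction. Its 12 columns for single arrays stayed unused, since each name fits samples of both tissues.

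Negative intensities were raised to 0 before log2(intensity + 16). Each table was fitted alone with limma 3.58.1 in R 4.3.3 (lmFit, eBayes with trend). A testis probe set was tested if present on all 3 arrays of a line, and an abdomen one if its mean log2 value reached the median, after 44 control probe sets were left out. A gene was represented by its brightest tested probe set. The difference between tissues added both moderated SEs in quadrature. Symbols came from the platform annotation (13647 testis and 12443 abdomen probe sets with 1 symbol). All member probe sets were named, and in each other list the 2 genes of lowest adjusted p in each direction, plus a few chosen after their values were seen. Members and lists were chosen with earlier results of these data known.

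Replicate letters are shared between lines. Deviations of same-letter arrays correlated at 0.15, 0.29 and 0.26 in abdomen, where each sterile array correlated best with its own letter. In testis these correlations were -0.07, 0.15 and 0.05. Whether the letters pair arrays was not tested, and the main fits took no account of them. The number of arrays limits the precision. The scripts were tested on simulated data. Pseudocounts of 1 and 64, other scaling, filters, no variance trend, the replicate block and leaving out each array were tried.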

Additional observations from a re-analysis of the deposited data

How the results depend on the processing

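The calls of mip40, topi, nht and aly held with the same sign under every alternative that gave a value, with log2 fold changes of 0.46 to 0.54, 0.21 to 0.29, 0.36 to 0.47 and -0.20 to -0.10. nht and mia gave none under the stricter filter, which removes them. tomb, mia and mip40 in abdomen passed under none of the alternatives. The sign of can turned with median centring (0.015), quantile normalization (0.050) and without fertile replicate B (-0.079 to 0.013 over the arrays left out). sa kept its sign and its call in 7 of 15 alternatives, with adjusted p-values from 0.0322 to 0.862. The number of members called lower in testis therefore fell from 2 to 1 with median centring, quantile normalization, no filter or no variance trend, and lay between 1 and 2 without single arrays. With the replicate block, 5 members were called in testis, 3 higher and 2 lower, and the block changed no other member's call. It moved the number of testis probe sets called from 5995 to 6117, and only for letters B and C did a sterile array correlate best with its own letter. In abdomen the replicate block gave 65 probe sets called, no variance trend 15, and leaving out single arrays 20 to 31. The lowest, 20, was without fertile replicate C, and 21, 23 and 25 followed without fertile A, sterile A and fertile B. Of 300 list counts recomputed, 285 stayed within 1.5 times and 15 moved, all in testis. The abdomen counts among the 300 were 0 in the main fit and stayed at 0. The 285 therefore overstate how stable the testis counts were. TFIID counted no gene higher without the variance trend. Without a filter 5 target genes and 2 each of the tMAC partners and the spermatocyte factors were lower, and 1 dREAM gene was. Without the variance trend 1 target gene was higher, and 2 were without sterile replicate C or fertile replicate B. TFIID had 1 lower under the stricter filter. Array number and spread limit the abdomen results, where changes of the size seen in testis were not detectable.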

Other observations

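Several genes of the pathway read without overlap between the lines in testis but were not tested, because of their detection calls. Of all testis probe sets, 49.6% did not overlap, so such separation was common. The sperm tail gene dj read 2568 ± 85.5 in sterile testis (SD, n = 3) against 3056 ± 75.8, and was called present on 33% of the arrays of each line. tBRD-2, a testis bromodomain protein gene, read 137.4 ± 14.7 against 194 ± 7.54 and was called present on 0%. The general TFIID gene Taf7 read 237 ± 3.34 against 369 ± 8.27 and was called present on 33% of sterile and 66% of fertile arrays. Over the whole testis table, 133 of 3435 probe sets with a mean of at least 1000 were called present on no array.

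CycB, whose transcript depends on the aly class in D. melanogaster, read 223 ± 9.51 in sterile testis (SD, n = 3) against 283 ± 37.9, with no overlap, but was present on 66% of the arrays of each line and was not tested. In abdomen CycB varied between arrays of the same line, from 736 to 3494 in sterile and from 749 to 2670 in fertile males, with replicate B the highest in both lines. l(3)mbt, of the dREAM complex, read 61.1, 157 and 78.2 in sterile and 166, 324 and 180.1 in fertile abdomen, without overlap and below the filter. Without a filter its log2 difference of -1.09 ± 0.48 (SE) had a limma adjusted p of 0.742. Of all abdomen probe sets, 12.3% did not overlap.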
